A study of Mus musculus with 6 samples.

Results

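The genes described here encode the proteins of the cytosolic ribosome. They were taken from the deposited expression tables by symbol: every gene named Rpl or Rps followed by a number and at most a letter (a, l, x or y) and a further digit, together with the stalk genes Rplp0, Rplp1 and Rplp2 and the small-subunit gene Rpsa, and with no mitochondrial ribosomal protein. Rpl36al, Rps27rt, pseudogene entries and the S6 kinases fall outside this rule. The rule found 84 genes, all of them listed in both deposited columns, of 21950 genes listed in both. The tissue was ileum, the distal small intestine, of C57BL/6 mice of 24 weeks that were wild type (3 mice) and of C57BL/6 mice of the same age labelled TLR4ΔIEC (3 mice), in which Tlr4, the receptor for bacterial lipopolysaccharide, is deleted in intestinal epithelial cells. The promoter that drives the deletion is not given in the sources used here. RNA came from whole ileum and was depleted of ribosomal RNA, so the transcripts of ribosomal proteins were measured and ribosomal RNA itself was not.

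For each genotype 1 column of average coverage (reads over each base of a transcript, averaged along it) was deposited, and that column belongs to all 3 mice. The values below are therefore those of 2 pooled columns: there is no spread between mice, no test and no p-value, and each difference has no replicate check. Sequencing was done on 1 pool of libraries per genotype, so genotype and sequencing pool cannot be told apart. In whole tissue, fewer cells of a type and less RNA per cell cannot be told apart either. Coverage was scaled so that the columns had a mean total of 1000000 units, and each ratio is the log2 of TLR4ΔIEC over wild type after 1 unit was added to both, so that a negative value means lower coverage in TLR4ΔIEC. A minimum of 5 units, averaged over the columns, kept 81 of the 84 members and 8888 genes in all.

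A ribosome consists of a small subunit, which reads the messenger RNA, and a large subunit, which joins amino acids. Each subunit is built on ribosomal RNA and holds a fixed set of proteins, most of them in a single copy, so their transcripts are made in large and similar amounts. In mammals these transcripts belong to the TOP class: they start with a C followed by a run of pyrimidines (C or T in DNA letters), through which mTORC1, the growth-sensing kinase complex, and the RNA-binding protein LARP1 set how well they are translated. The epithelium of the small intestine is renewed continuously from dividing cells in the crypts, which have a high demand for ribosomes.

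A run of pyrimidines near the annotated transcription start is visible in the DNA of part of these genes. The 9 windows shown run from 30 bases before to 30 bases from the RefSeq start on the strand of the gene (build GRCm38.p6), and capitals mark the longest run of C and T, the first one where runs tie. They were chosen to set genes with low ratios (Rps26, Rpl37a, Rpl27, Rps27 and Rps18) beside genes with higher ones (Rps6, Rpl22l1, Rps27l and Rps4x). The windows lie at chr17:33955636-33955695 (Rps18, minus strand), chr10:128626477-128626536 (Rps26, minus), chr1:72711230-72711289 (Rpl37a, plus), chr11:101442215-101442274 (Rpl27, plus), chr3:90213619-90213678 (Rps27, minus), chr4:86857338-86857397 (Rps6, minus), chr3:28805478-28805537 (Rpl22l1, plus), chr9:66946056-66946115 (Rps27l, plus) and chrX:102189362-102189421 (Rps4x, minus).
Rps18: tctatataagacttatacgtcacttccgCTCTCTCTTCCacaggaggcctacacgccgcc
Rps26: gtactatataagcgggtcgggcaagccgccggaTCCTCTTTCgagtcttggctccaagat
Rpl37a: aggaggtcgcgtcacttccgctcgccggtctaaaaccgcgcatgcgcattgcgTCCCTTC
Rpl27: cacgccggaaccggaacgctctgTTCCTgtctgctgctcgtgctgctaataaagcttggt
Rps27: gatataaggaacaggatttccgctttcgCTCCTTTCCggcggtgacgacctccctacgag
Rps6: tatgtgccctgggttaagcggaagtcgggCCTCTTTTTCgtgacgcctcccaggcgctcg
Rpl22l1: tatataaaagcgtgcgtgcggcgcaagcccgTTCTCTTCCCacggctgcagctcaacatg
Rps27l: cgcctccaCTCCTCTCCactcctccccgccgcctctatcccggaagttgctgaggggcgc
Rps4x: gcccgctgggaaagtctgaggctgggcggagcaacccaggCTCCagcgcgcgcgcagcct

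The run was 11 bases long in Rps18, 9 in Rps26, 9 in Rps27, 10 in Rps6 and 10 in Rpl22l1, and in these genes it lay within a few bases of the annotated start. In Rps27l, runs of 9 bases lay upstream of and close to the start, and a pair of them tied for the longest. The longest run was of 7 bases in Rpl37a, of 5 bases in Rpl27 and of 4 in Rps4x. In Rpl37a it lay well downstream of the RefSeq start and was cut off by the end of the window, so its full length is not shown. The GENCODE start of Rpl37a (72711290) lies just past that window, and that of Rpl27 (101442298) also lies past its window. In the windows shown, long and short runs occurred among the genes of low and of higher ratio alike, but the run lengths depend on the annotated start used. RefSeq windows were found by symbol for 63 of the 84 members, and a gene with several windows was represented by the one with the longest run. The median longest run was 9 bases among the members and 6 bases over 27025 genes. A run of at least 8 bases was found in 35 members (55.6%) and in 25.8% of all genes. In the wider window of 250 bases before to 50 after the start, the letters CCGGAAG, the core of an ETS-family binding site, were found on either strand in 25 members (39.7%) and in 9.10% of all genes. CTTTCC was found on either strand in 30 members (47.6%) and in 26.6%, and TATAAA in 7 members (11.1%) and in 14.3%. CTTTCC can lie inside a C/T run, as it does in Rps27, so these searches overlap. These are matches of letters and were not tested as sites.

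The ribosomal protein genes were among the most highly covered genes of the ileum in both genotypes. Their share of all coverage was 9.19% in wild type and 8.95% in TLR4ΔIEC. The large-subunit share was 5.40% and 5.42%, and the small-subunit share was 3.79% and 3.52%. Of the 50 genes with the highest mean level 2 were members, of the 100 highest 25, and of the 200 highest 53. When coverage was multiplied by the length it was averaged over, in the 78 members whose length was the same in both columns, their share of the read bases of all 11406 genes with such a length was 6.06% in wild type and 5.82% in TLR4ΔIEC, or 42.0 and 40.3 megabases of reads.

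The transcript levels of most canonical proteins, meaning those of the standard ribosome without the 7 paralogs, were close to one another. All 77 canonical genes were kept, and 56 of them lay within 2-fold of their median level of 1089 units. Their median was 1069 units in wild type, against 951 in TLR4ΔIEC. The highest, Rpl41, was 91.6-fold above the lowest, Rps15a. Rpl41, which encodes the smallest protein of the ribosome, stood at 10869 units in wild type and at 12835 in TLR4ΔIEC and ranked 13 among all genes. It held 1.06% of the wild type coverage and 1.32% of that in TLR4ΔIEC. Rps15a, at 128 and 131 units, was averaged over a length of 5134 bases, that of a long annotated transcript. Its level is thus not comparable with those of its short neighbours. The 91.6-fold span rests on both Rpl41 and Rps15a. The next canonical genes by mean level were Rps18 at 2874 units and Rpl22 at 192 units. Rpl22 was itself averaged over 4450 bases.

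The order of the levels was alike in both columns: across the 77 canonical genes Pearson's r of the log2 levels was 0.96 and Spearman's rho 0.92. This is a description over genes of the same 2 pooled columns, not over samples. After Rpl41 the highest genes were Rps18 (3401 units in wild type, 2347 in TLR4ΔIEC) and Rplp1 (2960 and 1718). Rps13, a core protein of the small subunit, stood at 2287 and 2283 units, a log2 ratio of -0.0022. Rps9, at 2341 and 2004 units, and Rpl32, at 2256 and 1963, were each near -0.2 (-0.22 and -0.20). Rps14, at 2168 and 1605 units, and Rpl11, at 2133 and 1514, had ratios of -0.43 and -0.49. Rps15 completed the 10 highest at 1806 and 1658 units (-0.12). Of these 10 genes, Rpl41 alone was higher in TLR4ΔIEC as scaled here, while Rps13 was above 0 under each of the other scalings (up to 0.13) and Rps15 was at 0.11 once a trend on GC and length was taken out.

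**Figure D1:**
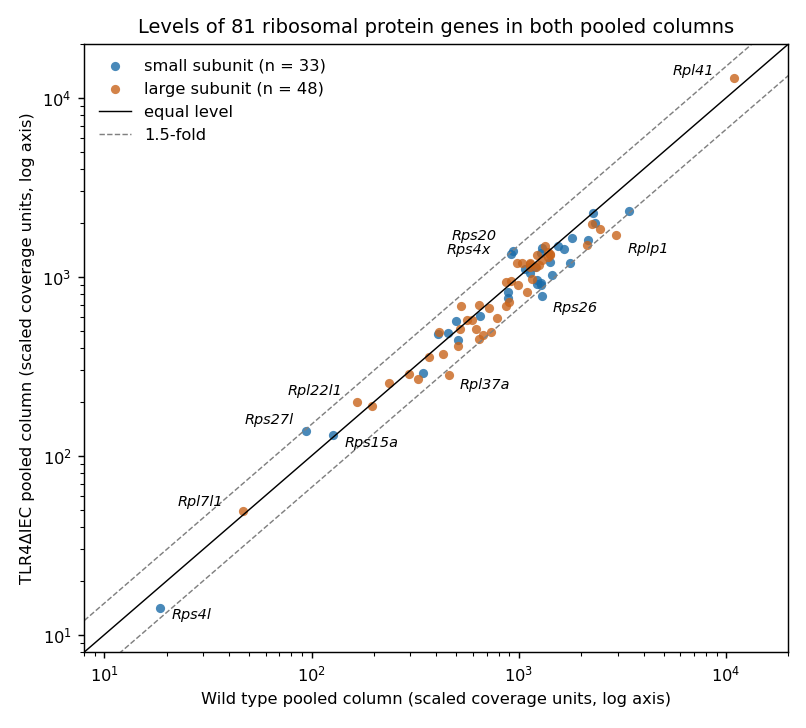
Level of each of the 81 kept ribosomal protein genes in the wild type column (horizontal axis) and the TLR4ΔIEC column (vertical axis), in scaled coverage units on log axes; each point is 1 gene in 2 pooled columns, so there are no error bars. Points lie along the line of equal level, with Rplp1, Rps26 and Rpl37a below the lower 1.5-fold line, Rps20 just inside the upper one, and Rpl41 apart at the top.

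Between genotypes the genes differed little, and more of them were lower in TLR4ΔIEC than higher. The median log2 ratio was -0.10 (mean -0.12, SD over genes 0.29), with the middle 50% of genes between -0.32 and 0.07 and a full range of -0.78 to 0.58. The median crossed 0 to 0.0043 with scaling by the column total less its 50 highest genes, and to 0.015 after quantile normalization, so its sign rests on the scaling. Ratios were below 0 for 54 of the 81 genes (66.7%), beside 47.3% of all kept genes. At least 1.5-fold lower were 3 members (3.70%), beside 10.2% of all kept genes. At least 1.5-fold higher were 0 members, beside 6.57%. Scaling to the column total, with or without its 50 highest genes, by quantiles, or not at all gave 3 members at least 1.5-fold higher, and the upper quartile gave 1. No member was 2-fold lower or higher, while 2.79% of all kept genes were 2-fold lower and 1.29% higher.

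The nearest comparison is with other genes of high coverage, although most of these were less covered than the members. Of the 492 kept genes at a mean level of 200 units or more, members included, 58.1% had ratios below 0. The share past 1.5-fold was 17.7% for lower and 5.28% for higher ratios, and the share past 2-fold was 5.49% and 2.24%. The 417 of them that were no members had a median of -0.10, like the members, and a wider spread (SD 0.58 against 0.29 for the members). Of these 417, 56.1% were below 0. Their median level was 447 units in wild type and 394 in TLR4ΔIEC, against 988 and 924 for the members. Short transcripts gave a like picture: of 1049 kept genes with a transcript under 1000 bases, 56.4% were below 0. In this set, the share past 1.5-fold was 20.4% for lower and 9.72% for higher ratios, and past 2-fold 7.05% and 4.96%. The 993 short transcripts that were no members had a median of -0.10 with an SD of 0.71. Set against the highly covered genes outside the group, the members' median was thus 0.0013. The median ratio of the members was thus close to that of the other genes of at least 200 units, whose median level was lower.

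The small subunit had a median of -0.12 over its 33 genes, 23 of them below 0. The large subunit had a median of -0.07 over 48 kept genes, 31 of them below 0. The summed level of the small-subunit genes was 38822 units in wild type, against 34323 in TLR4ΔIEC, which is 1.13-fold lower. That of the large-subunit genes was 55275 and 52876 units, or 1.05-fold lower, the same as the sum over all genes (1.05-fold). The share of coverage of the large subunit was 5.40% and 5.42%. This sum and this share include Rpl41, the most covered member, which was higher in TLR4ΔIEC (10869 and 12835 units, 1.06% and 1.32% of coverage). They therefore do not show that the other large-subunit genes kept their level. Both subunits spanned nearly the whole range, with an SD over genes of 0.32 and 0.27, so the difference of -0.06 between their medians was small beside the spread within each.

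**Figure D2:**
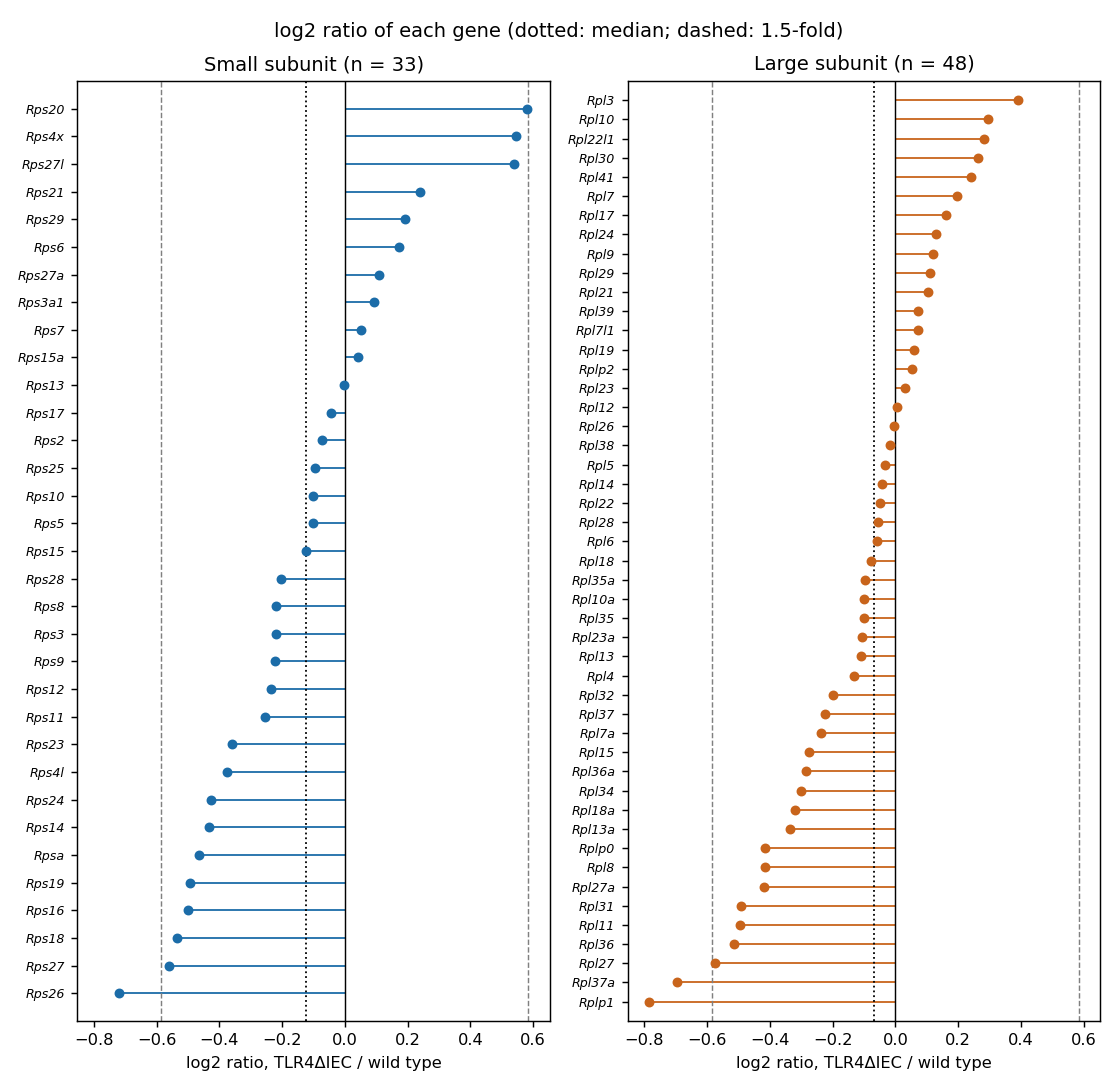
Log2 ratio of TLR4ΔIEC over wild type for each kept gene, small subunit on the left (33 genes) and large subunit on the right (48 genes), ordered by ratio; lines run from 0 to the value, dotted lines mark the medians (-0.12 and -0.07) and dashed lines 1.5-fold. More lines point left than right in both panels, and Rps26, Rpl37a and Rplp1 pass the lower dashed line.

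The lowest ratio as scaled here belonged to a stalk gene. The stalk is the flexible arm of the large subunit that recruits the factors driving translation; Rplp0 forms its base and Rplp1 and Rplp2 form its tips. Rplp1 (chr9:61913284-61914542 in GENCODE vM21, GRCm38) stood at 2960 units in wild type and at 1718 in TLR4ΔIEC, 1.72-fold lower with a log2 ratio of -0.78. With the GC and length trend taken out it was at -0.56, inside 1.5-fold, and Rpl37a (-0.74) and Rps26 (-0.74) were lower. Rplp0 stood at 2473 and 1856 units, a ratio of -0.41. Rplp2 stood at 917 and 951 units, a ratio of 0.05. The tip proteins thus had ratios of opposite sign.

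In the small subunit the lowest gene was Rps26 (chr10:128624534-128626747), whose protein lines the exit of the messenger RNA channel. It stood at 1295 units in wild type and at 786 in TLR4ΔIEC, a log2 ratio of -0.72. Rps27, a zinc-finger protein of the small subunit, stood at 1768 and 1199 units (-0.56). Rps18, a protein of the head of the small subunit and a common reference gene, stood at 3401 and 2347 units (-0.53). It overlaps the gene Vps52, and in all 19 kept members overlap another protein-coding gene in GENCODE, among them Rps14, Rpl32 and Rpl5. Whether the counting used strand is not given in the sources used here. Rps16, whose tail reaches the tRNA bound in the ribosome, stood at 1279 and 905 units (-0.50). Rpsa, the laminin receptor protein of the small subunit, stood at 1274 and 924 units (-0.46). In all 5 the TLR4ΔIEC value was below the wild type one under every setting tried.

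In the large subunit, Rpl37a (chr1:72711290-72713813), a small zinc-binding protein, stood at 459 units in wild type and at 283 in TLR4ΔIEC, a log2 ratio of -0.70. Rpl27, at 731 and 490 units, lay just inside 1.5-fold with a ratio of -0.57. Rpl36, at 640 and 447 units, had a ratio of -0.52. Rpl11, which with Rpl5 and the 5S ribosomal RNA binds Mdm2 and so links ribosome assembly to p53, had the ratio of -0.49 given above. The recovered length of Rpl11 differed between the columns. Rpl5 stood at 367 and 358 units (-0.03, with a coverage before scaling of 251 and 257).

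Higher in TLR4ΔIEC were Rps20 and Rps4x. Rps20 (chr4:3831334-3835665), a protein of the head of the small subunit, stood at 938 units in wild type and at 1403 in TLR4ΔIEC, a log2 ratio of 0.58, just inside 1.5-fold. Rps4x, the X-linked gene of the pair known in humans from its Y-linked copy, stood at 918 and 1340 units (0.54). In the large subunit the highest ratio was that of Rpl3, which lies beside the peptidyl transferase centre, at 525 and 688 units (0.39). Its recovered length differed between the columns and it overlaps Syngr1. Rpl10, which joins the large subunit late in its assembly, stood at 978 and 1201 units (0.30), and Rpl30 at 410 and 493 units (0.26). Rpl41 followed with a ratio of 0.24. Rps6, the small-subunit protein phosphorylated downstream of mTORC1, stood at 1287 and 1451 units (0.17). Rps4x and Rpl10 are both on chromosome X, where 3 of 4 members were above 0 (median 0.18); Rpl36a, at 327 and 268 units, was the exception with -0.29.

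Of the paralogs, the 3 known from muscle or testis were barely covered. Rpl3l, the muscle copy of Rpl3, had an average coverage, before scaling, of 0.075 in wild type and of 0.076 in TLR4ΔIEC. Rpl10l and Rpl39l, known from the testis, had 0.032 and 0.060, and 0.11 and 0.13. These 3 did not reach the minimum level and took no part in the ratios. The 4 paralogs that did were Rps4l at 18.7 and 14.2 units (-0.38), Rpl7l1 at 46.7 and 49.1 (0.07), Rps27l at 94.3 and 137 (0.54), and Rpl22l1 at 165 and 201 (0.28). Their median was 0.18, with 3 of 4 above 0.

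Rpl7l1 had the same sign as Rpl7 (0.20). Rpl22l1 had a ratio of 0.28, while Rpl22, whose protein it can replace, was near 0 at -0.05 (196 and 189 units), with a coverage before scaling of 134 and 135. Rpl36al, a copy of Rpl36a outside the naming rule, stood at 365 and 381 units (0.06), beside -0.29 for Rpl36a. Rps4l, which overlaps Tmtc1, had -0.38 beside 0.54 for Rps4x. Rps27l, a p53 target in other settings, had 0.54 beside -0.56 for Rps27. The deposited tables also list Rps27rt, an intronless copy of Rps27, at 3140 units in wild type and at 2131 in TLR4ΔIEC (-0.56). The first 90 coding bases of the 3 genes are shown because they decide which reads can be told apart; capitals mark bases of Rps27l that differ from Rps27.
Rps27: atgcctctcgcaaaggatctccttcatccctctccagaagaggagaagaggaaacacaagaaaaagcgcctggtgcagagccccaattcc
Rps27rt: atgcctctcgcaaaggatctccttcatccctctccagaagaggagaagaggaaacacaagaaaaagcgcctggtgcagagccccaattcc
Rps27l: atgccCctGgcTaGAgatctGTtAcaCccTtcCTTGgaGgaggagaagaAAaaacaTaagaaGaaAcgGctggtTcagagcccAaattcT

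Rps27l differed from Rps27 at 24 of these 90 bases and was 77.3% identical over the coding sequence. Rps27rt was identical to Rps27 over the whole coding length of 252 bases and over all 341 aligned bases of the transcripts. Reads from Rps27 and Rps27rt could not be told apart there, and both entries had the same ratio of -0.56, so the split of coverage between them is uncertain. Reads from Rps27l could be told apart, and its ratio had the other sign.

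Near-identical pseudogenes are a property of this family, and 61 of the kept members have at least 1 named pseudogene in GENCODE. These 61 had a median ratio of -0.10, and the 20 without one had -0.08. The search was by symbol, so the 20 can still have copies under other names. Rplp2 is among them, although the deposited tables list Rplp2-ps1. Entries for 7 pseudogenes of 6 members were listed with a mean over 5 units, with ratios from -0.34 to 0.46 and a median of 0.20. Rpl34-ps1, which differs from Rpl34 at 2 of 354 aligned bases, stood at 1051 units in wild type and at 854 in TLR4ΔIEC, above Rpl34 itself (508 and 412 units), and both had a ratio of -0.30. Rps19-ps3, 95.4% identical to Rps19, had a ratio of 0.39 at a level of 26.4 and 34.8 units, while Rps19 stood at 1444 and 1025 units (-0.49). How the authors placed reads that match several copies is not given in the sources used here, so the values of members with such copies are uncertain.

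Genes for ribosomal proteins also carry small nucleolar RNAs in their introns, which guide the modification of ribosomal RNA. In GENCODE 58 such RNAs lie inside 30 members. Those host genes had a median ratio of -0.09, with 19 of 30 below 0, and the other 51 had -0.10, with 35 below 0. The medians by promoter letters were close too. The 34 kept members with a C/T run of at least 8 bases anywhere in the window around the start had a median of -0.10 (26 below 0). The 26 without had -0.07 (16 below 0). Those with CCGGAAG had -0.08 (24 genes) and those without had -0.10 (36 genes).

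Base composition moved with the ratio, among the members and over all genes. Spearman's rho between the log2 ratio and the GC content of the transcript was -0.34 over 8851 kept genes and -0.22 over the 81 members, as a description across genes that share the same libraries. The 27 members of lowest GC content (40.6 to 49.2%) had a median of -0.03, with 14 below 0. The middle 27 (49.3 to 53.1%) had -0.06, with 18 below 0, and the highest 27 (53.3 to 60.8%) had -0.12, with 22 below 0. Genes outside the group in the same GC ranges had medians of 0.15, 0.03 and -0.13. The GC value of Rps20 rests on an annotated transcript of 3706 bases. After a trend on GC and length was taken out, the members' median was -0.04 and 43 were below 0. The part of base composition in the members' ratios was not tested further.

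Some ribosomal proteins are made as fusions that are cut after translation. Rps27a encodes ubiquitin joined to a protein of the small subunit, and Fau, which falls outside the naming rule, encodes a ubiquitin-like protein joined to another. Fau stood at 1777 units in wild type and at 932 in TLR4ΔIEC, a log2 ratio of -0.93 that was lower than that of any member. Rps27a, which overlaps Clhc1, stood at 453 and 488 units (0.11).

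The rest of the translation machinery was set beside the ribosomal proteins by lists chosen by function. Initiation factors, which bring the subunits to the messenger RNA, had a median of 0.20 over 42 genes, with 11 below 0. In that list Eif2b1, part of the exchange factor for eIF2, stood at 13.7 and 28.8 units (1.02), Eif2s1, the eIF2 subunit that stress kinases phosphorylate, at 14.6 and 25.5 (0.76), and Eif4ebp1, the mTORC1-controlled inhibitor of cap binding, at 36.2 and 20.7 (-0.78). Aminoacyl-tRNA synthetases, which charge tRNAs, had a median of 0.29 over 20 genes, with 4 below 0 and Kars at 46.6 and 73.1 units (0.64). Genes of ribosome biogenesis had a median of 0.21 over 38 kept genes, with 9 below 0. Ncl (0.64) and Fbl (0.53), both nucleolar proteins that act on ribosomal RNA, were at the high end, and Sbds (-0.53), which releases the anti-association factor from the large subunit, was the lowest of those named. These 3 list medians were above 0 under every setting tried (lowest 0.15, 0.24 and 0.17), and that of the ribosomal proteins reached 0.015 at most.

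Elongation factors, whose transcripts include TOP members as abundant as those of ribosomal proteins, had a median of 0.12 over 11 genes, with 5 below 0; the median was -0.20 when only genes with the same recovered length in both columns were used. Eef1a1, which carries tRNAs to the ribosome, stood at 4578 units in wild type and at 5548 in TLR4ΔIEC (0.28). Eef2, which moves the ribosome along, stood at 1199 and 878 units (-0.45), and Tpt1, another TOP transcript, at 1687 and 1280 (-0.40). RNA polymerase I, which makes the ribosomal RNA precursor, had 6 kept genes with a median of -0.38 (5 below 0), and 0.0072 when the minimum level was lowered to 1 unit. Upstream regulators of the mTORC1 and Myc class had a median of -0.10 over 15 genes (10 below 0), and 0.02 with the GC and length trend removed. Mxd1, a Max partner that opposes Myc and a gene known from differentiated cells, stood at 254 and 133 units (-0.93).

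Among other housekeeping families, mitochondrial ribosomal proteins had a median of 0.07 over 74 genes (29 below 0, 2 at least 1.5-fold lower and 1 higher). Proteasome subunits had 0.26 over 31 genes (6 below 0). Nuclear-encoded subunits of oxidative phosphorylation, which are short and abundant transcripts too, had -0.0060 over 75 genes (38 below 0), a median that was above 0 under 6 of the other settings, and 10 of them were at least 1.5-fold lower, beside 3 of the 81 ribosomal protein genes. The ribosomal protein median of -0.10 was below that of oxidative phosphorylation and those of the 6 lists with medians above 0. It was next to that of the mTORC1 and Myc list (-0.10) and above that of RNA polymerase I (-0.38). Levels differed as well: the median in wild type was 988 units for the members and 12.8 for ribosome biogenesis. No test of these differences was possible.

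**Figure D3:**
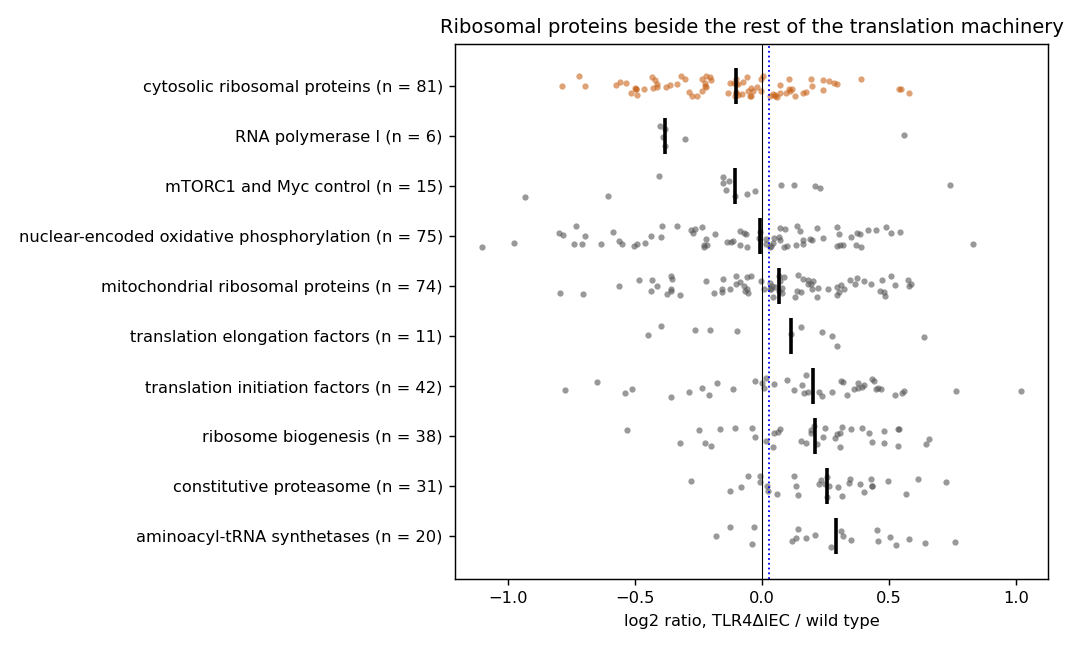
Log2 ratio of TLR4ΔIEC over wild type for the genes of each list (points; number of kept genes in brackets), with black bars at the list medians and a dotted line at the median of all kept genes (0.03). The bar of the ribosomal proteins is at -0.10, and those of the initiation factors, biogenesis factors, proteasome and tRNA synthetases lie between 0.20 and 0.29.

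**Figure D4:**
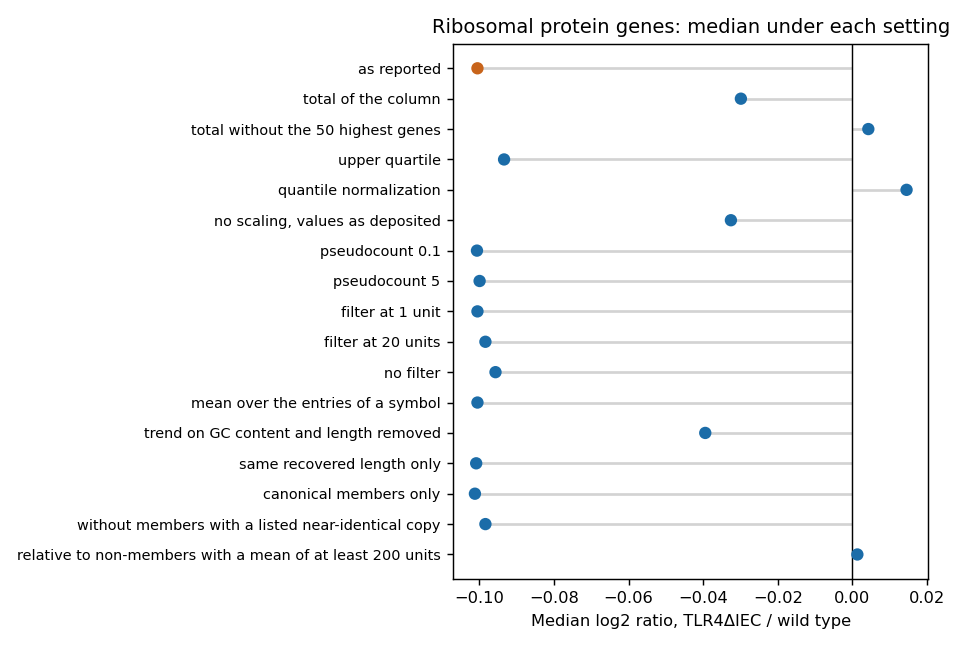
Median log2 ratio of the ribosomal protein genes under each setting tried, as a line from 0 to the value; the orange point is the reported one (-0.10). The median lies between -0.10 and 0.015, and it is above 0 with the total less its 50 highest genes, with quantile normalization and relative to highly covered genes outside the group.

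Markers of several cell types of the small intestine differed between the pooled columns, and their part in the ribosomal protein ratios was not tested. All 7 villus enterocyte markers were lower in TLR4ΔIEC, with sums of 15704 and 5500 units, and all 3 goblet cell markers were lower (4205 and 2812). Among the goblet cell markers Tff3 stood at 3037 and 1791 units. Muc2 was near 0 at -0.04, with a coverage before scaling of 296 and 302, so its sign rests on the scaling. Higher were all 6 kept markers of crypt and cycling cells (249 and 398 units), all 4 of T cells (85.4 and 246), both of plasma cells (226 and 758), 3 of 4 of macrophages (840 and 1596) and all 3 of red cells (130 and 297). Of handling and stress genes, all 6 kept were lower (286 and 134 units), as were all 4 kept adipocyte markers (64.5 and 20.4). The sums also include the listed markers under the minimum level. These were Lgr5 among crypt markers, Egr1 and Fosb among handling and stress genes, and Plin1 among adipocyte markers. Paneth cell markers summed to 61235 and 64754 units and smooth muscle markers to 543 and 611. No marker was at 0 in either column, the lowest coverage being 0.436. Tlr4 itself stood at 2.90 units in wild type and at 2.24 in TLR4ΔIEC (-0.27), under the minimum level; this is the average over its whole transcript in all cells of the ileum, so it does not check the deletion.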

How the data were processed

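Per the labels' protocols, snap-frozen ileum gave total RNA that was depleted of ribosomal RNA, fragmented with RNase III and made into strand-specific Ion Torrent libraries, 1 barcode per mouse. The submitters' processing notes name TopHat2 2.0.10, Bowtie2 2.1.0 and build mm10. Per the file headers, the deposited signal is average coverage per RefSeq entry, 1 column for each genotype; no source used here gives the tool, the read length or the handling of strand. Without read numbers no counting interval was computed.

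Coverage was scaled by the median of ratios over the 22001 entries listed in both columns (factor 1.05; column sums 699800 in wild type and 698473 in TLR4ΔIEC). Entries in 1 column only (723 and 686) were left out. A pseudocount of 1 unit and a minimum mean of 5 units (coverage of 3.41 and 3.58) were used; a symbol with several entries was represented by the highest. The length behind an average was recovered from its value as a fraction (tolerance 1e-11) and differed between columns for 6 members. Coordinates, GC content, small nucleolar RNAs, overlaps and coding bases came from GENCODE vM21, where all 84 members were found, and promoters from RefSeq (GRCm38.p6).

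Named members were the 10 highest and 5 lowest by level, the 8 highest and 8 lowest ratios with a mean of at least 20 units, the paralogs, the stalk genes and Rpsa; up to 4 genes came from each list. Other members (among them Rps6, Rps15a, Rps19, Rpl5, Rpl22, Rpl34 and Rpl36a) were chosen after their values were seen. The members, lists and settings were chosen with earlier results of these data known. Alternatives were 5 scalings, 2 pseudocounts (0.1 and 5), 3 filters, removal of the GC and length trend, and other choices of entries and members. The steps were tested on simulated data. Python 3.11.15, numpy 2.4.6, pandas 2.3.3, Biopython 1.88 and matplotlib 3.10.9 were used.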

Additional observations from a re-analysis of the deposited data

How the results depend on the processing

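The members' median of -0.10 was 0.0043 when the 50 highest genes were left out of the total used for scaling, 0.015 after quantile normalization and, in a comparison chosen after seeing the data, 0.0013 relative to non-members of at least 200 units; the first of these scalings also moved the median of all kept genes from 0.03 to 0.12. Members below 0 numbered 54 as reported and 37 to 55 over all settings; 2 to 3 were at least 1.5-fold lower and 0 were 2-fold lower in each. Members at least 1.5-fold higher numbered 0 as reported, 1 with the upper quartile, and 3 with the column total, the total without the 50 highest genes, quantile normalization or no scaling. The difference of the subunit medians ranged from -0.07 to -0.04. Computed from coverage times length, over 78 members among 11406 genes of the same length in both columns, the members' share in TLR4ΔIEC was 5.82% in place of 8.95%; weighting and gene set changed together. Rplp1 left the 1.5-fold group with the GC and length trend removed (-0.56). Of the 27 members followed through the settings, Rps13 (up to 0.13, over the scalings) and Rps15 (0.11, trend removed) crossed 0, and the rest kept their sign; other members near 0, such as Rpl5 and Rpl22, change sign without scaling.

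Of the 9 related lists, 6 had medians above 0 as reported and 5 to 8 over the settings. Oxidative phosphorylation went from -0.0060 to 0.064 (column total), 0.10 (total without the 50 highest), 0.0011 (upper quartile), 0.10 (quantile), 0.062 (no scaling) and 0.028 (GC and length trend removed). RNA polymerase I had 0.0072 with a filter at 1 unit or none, the mTORC1 and Myc list 0.019 with the trend removed, elongation factors -0.20 with the same recovered length only, and all kept genes -0.034 with a filter at 20 units; beyond what each setting does by construction, the cause was not tested. Coverage gives no read numbers, so depth sets an unknown limit for weak genes. A planned setting that added related genes to the members is not reported here. No mouse could be left out, since each column is a pool. No paired analysis was possible because the columns carry no replicate and the genotypes share no replicate number.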
